A study of Homo sapiens and Mus musculus with 19 samples.

Results

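The 10 genes described here encode the core and accessory subunits of Polycomb repressive complex 2 (PRC2): EZH1, EZH2, EED, SUZ12, RBBP4, MTF2, PHF1, PHF19, JARID2 and AEBP2. They were taken by gene symbol from 58721 human genes counted in K562 cells and, as the mouse genes of the same symbols, from 54446 genes counted in mouse embryonic stem cells (mESC). All 10 were found in both species, and 10 of 10 passed the filter on low counts in each.

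PRC2 methylates lysine 27 of histone H3, a mark of repressed developmental genes. EZH2 or its relative EZH1 carries the catalytic site, EED and SUZ12 complete the core that activity requires, and RBBP4 is a histone-binding chaperone shared with other chromatin complexes. The Polycomb-like proteins MTF2, PHF1 and PHF19 define one form of the complex, and JARID2 together with AEBP2 defines the other.

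The data were counts of chromatin-associated RNA (caRNA), the RNA that stays in the chromatin pellet after cytoplasm and nucleoplasm have been washed out, so that unspliced transcripts weigh heavily and a value is not a level of finished mRNA or of protein. The mESC were grown with serum, LIF and 2 kinase inhibitors. They were transfected either with control siRNA (siControl, 3 libraries) or with siRNA that targets Nsun2 (siNsun2, 3 libraries), the gene of an enzyme that places 5-methylcytosine (m5C) on RNA. K562, a human leukaemia line with erythroid features, was either TET2 wild type (WT) or TET2 knockout (KO, TET2-/-). Each genotype carried lentiviral shRNA, either the control (shControl) or one that targets MBD6 (shMBD6), whose product has a methyl-binding domain, which made 4 groups of 3 libraries. The TET2 enzyme oxidises m5C, and the study asked how RNA m5C and its reader MBD6 act on chromatin. All K562 groups had passed through lentiviral transduction and puromycin selection, and the KO cells were a line generated earlier. The study describes the replicates of its genome-wide data as biological, and no label says what separates the replicate libraries, so p-values measure the spread between these libraries. In bulk samples such as these, fewer cells of a type and less RNA per cell cannot be told apart. Total gene counts were 58078323 to 66832780 per mESC library and 52158403 to 102070223 per K562 library.

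The targeted genes were examined first. Nsun2 stood at 133, 126 and 130 CPM (counts scaled to a common library total) in the siControl libraries and at 98.8, 106 and 103 CPM in the siNsun2 libraries. Its log2 change was -0.34 ± 0.031 SE and that of Tet2 -0.42 ± 0.0222 SE, both lower at an edgeR adjusted p under 0.05. The median over 5359 protein-coding genes with a mean log2 CPM of 5 or higher was -0.21. MBD6 stood at 43.3, 42.7 and 38.6 CPM in WT shControl and at 30.9, 25.7 and 27.2 CPM in WT shMBD6. In TET2 KO cells MBD6 was at 30.6, 30.8 and 29.4 CPM under shControl and at 30.6, 38.3 and 34.2 CPM in the libraries labelled shMBD6, so that this group went against its label and is called by its label throughout. TET2 RNA was not lower in KO than in WT under shControl (129 against 121 CPM on average), and a gene-level count cannot show whether a small deletion is present. In the KO libraries labelled shMBD6 it was at 91.9, 100.9 and 91.6 CPM, below the other groups. Markers of other cell types were low. In mESC the feeder markers summed to 32.2 to 34.7 CPM in siControl and 26.7 to 28.6 CPM in siNsun2, and 5 stem cell markers, of which Sox2 was listed at 0, to 934 to 962 CPM and 829 to 848 CPM. In K562 the lymphoid and monocyte markers summed to 1.83 to 4.08 CPM. The K562 markers, among them GATA1 and LMO2, summed to 455 to 472 CPM in WT shControl, 259.7 to 279.7 CPM in WT shMBD6, 183 to 197 CPM in KO shControl and 268 to 278 CPM in the KO libraries labelled shMBD6, with HBG2 listed at 0. The part of this difference in the results below was not tested. Other genes on the same strand overlap 100% of the spans of Sox2 and HBG2, and reads there can be ambiguous and left uncounted. A 0 for either gene therefore does not show that its RNA was absent.

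Levels of different genes were compared per kilobase (kb) of gene span, introns included, and per kb of merged exons as a second scale, since whether reads in introns were counted is not given in the sources used here. In siControl mESC the order per kb of span was led by Mtf2 at 14.5 ± 0.383 CPM per kb (SD, n = 3) and Suz12 at 11.1 ± 0.280, followed by Eed at 6.40 ± 0.140 and Ezh2 at 6.25 ± 0.0675. Jarid2 (4.58 ± 0.069), Rbbp4 (4.29 ± 0.145), Aebp2 (2.21 ± 0.0897), Phf1 (1.83 ± 0.241) and Ezh1 (1.66 ± 0.0788) lay below them. Phf19 was last at 0.0952 ± 0.00482 CPM per kb, 3.43 times the mean level of the olfactory receptor genes. That mean was taken as the background in both cell types. Some human olfactory receptor genes, such as OR51B5, lie within the span of HBG2, and whether any of them is transcribed was not tested. Among neighbours in this order the ranges over libraries overlapped for Eed and Ezh2 and for Phf1 and Ezh1, and these pairs could not be ordered.

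In WT shControl K562 the order was different at the top. EZH2 led at 7.96 ± 0.144 CPM per kb of span, PHF19 was second at 5.68 ± 0.336 and RBBP4 next at 5.40 ± 0.253. SUZ12 (2.54 ± 0.0987), JARID2 (2.33 ± 0.0277), MTF2 (2.08 ± 0.117), EZH1 (1.76 ± 0.0199), PHF1 (1.72 ± 0.197), EED (0.817 ± 0.0485) and AEBP2 (0.241 ± 0.0187) followed. The ranges of PHF19 and RBBP4 overlapped, as did those of EZH1 and PHF1. Per kb of exon JARID2, which spans 276 kb, moved ahead of EZH2 (103 ± 1.18 against 56.9 ± 1.03 CPM per kb). AEBP2 is the least certain level, since the annotation used here gives it 316.8 kb and RefSeq 118.2 kb. Per kb of the RefSeq span it was at 0.646 ± 0.0502 CPM per kb, still last of the 10. The mouse and human values come from separate tables and were set side by side without a test.

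The make-up of the Polycomb-like genes was read as shares within each cell system. Of the summed level of Mtf2, Phf1 and Phf19 per kb of span, Mtf2 made up 88.3 ± 1.58% in siControl mESC and Phf19 made up 0.579 ± 0.0347%. In WT shControl K562, MTF2 made up 22.0 ± 1.5% and PHF19 59.9 ± 3.04%. PHF1 held 11.1 ± 1.55% and 18.1 ± 2.07%. Per kb of exon, Mtf2 held 97.4 ± 0.371% in mESC and PHF19 held 58.5 ± 2.80% in K562, so that the leading gene was the same on both scales.

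**Figure D1:**
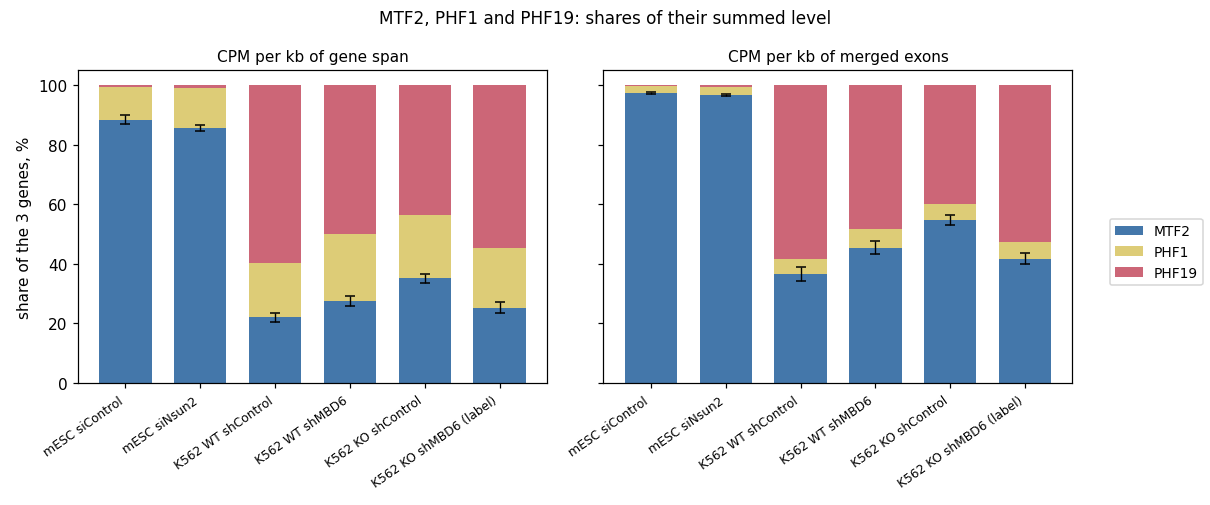
Stacked bars give the mean share (%) of MTF2, PHF1 and PHF19 in their summed CPM per kb of gene span (left) and of merged exons (right) in the 6 groups, with the SD of the MTF2 share (n = 3 libraries) as error bar. Mtf2 fills 88.3% of the siControl mESC bar per kb of span, and PHF19 holds between 43.7% and 59.9% in the K562 groups.

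The catalytic pair was led by EZH2 in every library. The log2 ratio of Ezh1 to Ezh2 counts within a library was -2.80 ± 0.0691 in siControl and -2.93 ± 0.0875 in siNsun2 mESC. In K562 the EZH1 to EZH2 log2 ratio was -2.96 ± 0.0381 in WT shControl, -2.92 ± 0.0415 in WT shMBD6, -2.91 ± 0.0108 in KO shControl and -2.52 ± 0.0643 in the KO libraries labelled shMBD6, so that this last group stood above the others. Its difference from KO shControl was 0.38 and from WT shMBD6 0.40 on the log2 scale, with exact two-sided permutation p = 0.1 for each, adjusted p = 0.167 over the 5 pairs of groups, and 0.1 is the smallest p that 3 libraries against 3 allow. KO shControl lay above WT shControl by 0.05 without overlap (exact permutation p = 0.1). The difference was 0.03 for shMBD6 in WT (exact permutation p = 0.5) and -0.13 for siNsun2 in mESC (exact permutation p = 0.2), and in both of these the groups overlapped.

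RefSeq promoter windows, taken as the 250 bases before a start site in GRCh38.p14, were at hand for all 10 human genes with 14 start sites. They were searched on both strands for 4 words of the E2F type, TTTCCCGC, TTTGGCGC, TTTCGCGC and TTTGCCGC, since E2F factors are known regulators of S phase genes and of EZH2. A word was found in 4 of the 14 windows, belonging to EZH1, PHF19, SUZ12 and AEBP2, against 2.79% of 35116 windows of all genes. These 4 windows held 26, 39, 34 and 23 CpG against a median of 11 over all windows, and the 14 windows of the members ranged from 11 (EED) to 39 (PHF19 and EZH2). No word lay in either EZH2 window, which says only that these letters are absent there. The sequences are shown because the genes that hold a word differed in how they changed in K562, as given below. They are printed 5′ to 3′ on the gene's strand without bases that the annotation places in an exon, with the word or its reverse complement in capitals: EZH1 (chr17:42745050-42745290, minus strand), PHF19 (chr9:120877189-120877438, minus strand, the further upstream of its start sites), SUZ12 (chr17:31936757-31937006, plus strand) and AEBP2 (chr12:19440371-19440580, plus strand).
EZH1: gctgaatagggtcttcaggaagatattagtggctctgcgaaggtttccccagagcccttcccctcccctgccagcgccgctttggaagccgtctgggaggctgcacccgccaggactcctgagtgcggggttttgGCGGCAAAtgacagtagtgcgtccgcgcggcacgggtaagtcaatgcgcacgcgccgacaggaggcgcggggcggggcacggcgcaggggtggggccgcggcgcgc
PHF19: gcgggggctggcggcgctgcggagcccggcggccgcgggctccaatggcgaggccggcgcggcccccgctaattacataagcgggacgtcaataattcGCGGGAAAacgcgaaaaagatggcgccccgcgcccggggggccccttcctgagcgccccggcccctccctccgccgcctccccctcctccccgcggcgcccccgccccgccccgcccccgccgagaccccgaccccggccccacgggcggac
SUZ12: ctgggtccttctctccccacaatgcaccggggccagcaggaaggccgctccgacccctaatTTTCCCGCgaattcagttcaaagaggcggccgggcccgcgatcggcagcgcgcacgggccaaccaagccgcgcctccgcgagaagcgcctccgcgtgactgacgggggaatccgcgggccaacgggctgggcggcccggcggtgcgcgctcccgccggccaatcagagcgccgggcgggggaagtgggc
AEBP2: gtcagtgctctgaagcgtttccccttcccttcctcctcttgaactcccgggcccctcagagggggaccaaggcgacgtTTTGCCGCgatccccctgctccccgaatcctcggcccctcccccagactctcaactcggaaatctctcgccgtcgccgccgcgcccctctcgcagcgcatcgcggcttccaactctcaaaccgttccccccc

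TET2 KO was compared with WT under shControl, and PHF19 and AEBP2 showed the largest differences among the 10. No label names a further KO line, so that genotype cannot be told apart from other differences between the WT and KO cells. MBD6 was itself lower in KO (log2 change -0.46 ± 0.0761 SE, edgeR adjusted p = 6.5e-06), and its part was not tested. PHF19, a Polycomb-like subunit that binds methylated H3K36 (chr9:120855651-120894896 in hg38, minus strand), was at 238, 219 and 213 CPM in WT and at 123, 124 and 114 CPM in KO. Every KO library lay below every WT library, and KO stood at 0.539 times the WT level (log2 change -0.89 ± 0.0428 SE, edgeR adjusted p = 2.0e-18). AEBP2, a zinc-finger cofactor of the JARID2 form (chr12:19404045-19720801, plus strand), was at 69.7, 80.9 and 78.5 CPM in WT and at 123, 131 and 124 CPM in KO. The groups did not overlap, and KO stood at 1.65 times WT (log2 change 0.72 ± 0.0481 SE, edgeR adjusted p = 1.5e-14).

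Of the 10 genes, 2 were called lower and 3 higher in KO at an edgeR adjusted p under 0.05, or 5 in either direction, while 45.8% of all genes tested were called, 22.3% lower and 23.5% higher. The share of members called was close to that background. The other calls were small. EZH2 (chr7:148807257-148884321, minus strand) was at 606, 608 and 626 CPM in WT and at 564, 567 and 557 CPM in KO, without overlap, a log2 change of -0.12 ± 0.0243. MTF2, which was at 117, 129 and 128 CPM in WT and at 139, 155 and 148 CPM in KO, rose by 0.24 on the log2 scale (SE 0.0432). JARID2, which recruits the complex and is itself methylated by it, was at 639.7, 639.2 and 653 CPM in WT and 712, 705 and 693 CPM in KO, a log2 change of 0.13 ± 0.0234. With scaling by total gene counts, which put the median of all genes at -0.23, neither JARID2 (-0.05) nor MTF2 (0.06) was called.

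EED (0.06 ± 0.067), SUZ12 (0.04 ± 0.0345), RBBP4 (-0.0045 ± 0.0337), EZH1 (-0.07 ± 0.0415) and PHF1 (-0.21 ± 0.127) were not called, and the median log2 change was 0.02 over the 10 genes and -0.05 over all genes tested. The genes around PHF19 and AEBP2 were read in the same comparison. The 17 protein-coding neighbours of PHF19 within 2 Mb had a median log2 change of -0.12, ranging from -0.94 to 0.75, so that the value of PHF19 lay within their range, and the 5 of AEBP2 had a median of -0.10, ranging from -0.35 to 0.25, all below AEBP2. Per kb of its 316.8 kb span, AEBP2 was 2.99 times the olfactory receptor level in WT and 3.40 times in KO. The olfactory receptor level itself rose from 0.0807 to 0.117 CPM per kb. Per kb of the 118.2 kb RefSeq span, AEBP2 was at 0.646 CPM per kb in WT and 1.07 in KO, further above that level. With the olfactory receptor level subtracted per kb of the longer span, the AEBP2 log2 change was 0.81 in place of 0.72. That of PHF19 was -0.93. The subtraction was a choice made after seeing the data, and it was not repeated with the RefSeq span.

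**Figure D2:**
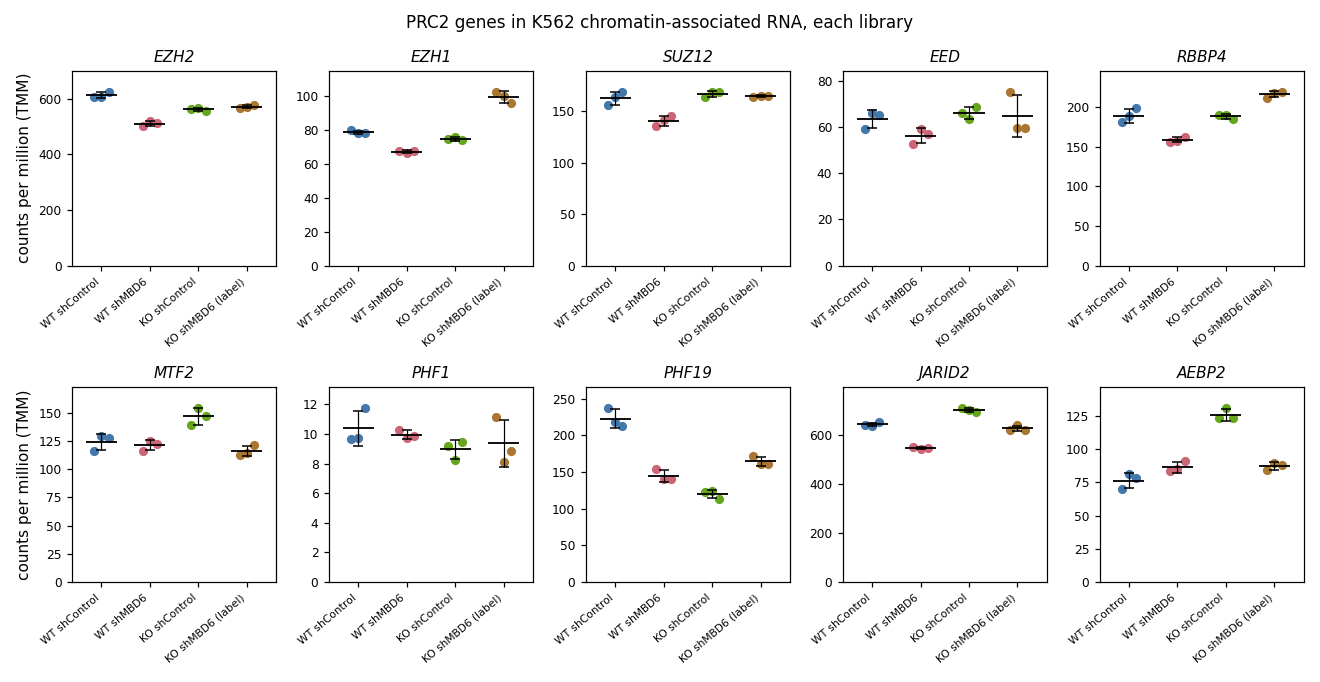
Points give CPM (linear axis from 0, TMM-scaled) of each PRC2 gene in each K562 library of the 4 groups, with the mean as a line and the SD (n = 3) as error bar. PHF19 is highest in WT shControl (213 to 238) and lowest in KO shControl (114 to 124), and AEBP2 is highest in KO shControl (123 to 131).

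Within the K562 Polycomb-like genes, MTF2 and PHF19 drew closer in KO. The PHF19 share per kb of span fell from 59.9 ± 3.04% in WT shControl to 43.7 ± 1.67% in KO shControl, and the MTF2 share went from 22.0 ± 1.5% to 35.1 ± 1.55%, with no overlap between libraries for either. No test was run on these shares. Per kb of exon the order turned, with MTF2 at 36.5 ± 2.40% and PHF19 at 58.5 ± 2.80% in WT, and MTF2 at 54.6 ± 1.66% and PHF19 at 39.9 ± 1.61% in KO.

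In TET2 WT cells shMBD6 was compared with shControl, with MBD6 itself at 0.675 times the shControl level, and most PRC2 genes were lower in shMBD6. At an edgeR adjusted p under 0.05, 7 of the 10 were lower and 1 was higher, against 24.7% of all genes tested called lower, 17.7% higher and 42.4% in either direction. The median log2 change of the 10 was -0.22, that of all genes tested 0.10, and that of 5350 well-expressed protein-coding genes (mean log2 CPM 5 or higher) was -0.18, with 62.1% of them called lower. PHF19 was the largest of these changes, from 238, 219 and 213 CPM to 154, 139.9 and 140.3 CPM, without overlap (0.650 times the shControl level, log2 change -0.62 ± 0.0425 SE, edgeR adjusted p = 6.8e-14). EZH2 went from 606, 608 and 626 CPM to 501, 520.3 and 512 CPM, also without overlap (log2 change -0.26 ± 0.0243).

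RBBP4 (-0.25 ± 0.0338), JARID2 (-0.24 ± 0.0234), EZH1 (-0.23 ± 0.0416), SUZ12 (-0.21 ± 0.0346) and EED (-0.18 ± 0.0673) were lower by similar log2 amounts, and MTF2 (-0.04 ± 0.0433) and PHF1 (-0.06 ± 0.127) were not called. AEBP2 was at 83.3, 84.9 and 90.8 CPM in shMBD6, above all 3 shControl libraries (log2 change 0.18 ± 0.0482, edgeR adjusted p = 0.0033). The direction of the small changes rested on the scaling. With TMM computed only on genes at least 10 times above the olfactory receptor level, which put the median of all genes at 0.33, the counts became 1 lower and 2 higher, EZH1, EED and SUZ12 turned to 0.0038, 0.06 and 0.02, and EZH2 (-0.03), JARID2 (-0.01) and RBBP4 (-0.02) were no longer called, while PHF19 (-0.39) and AEBP2 (0.41) remained called and MTF2 was called higher (0.19). EED lost its call without WT shControl replicate 2 or 3 or WT shMBD6 replicate 1 or 3, with log2 changes over all single omissions between -0.23 and -0.13. Without WT shControl replicate 1, AEBP2 was not called, at 0.11.

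**Figure D3:**
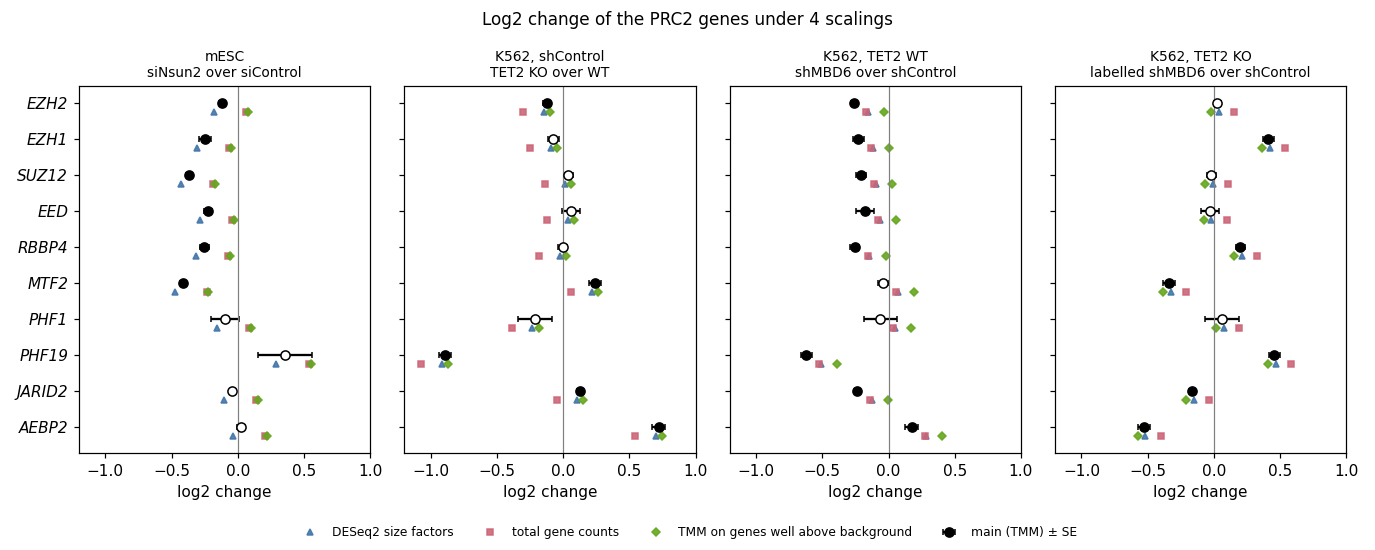
Black circles give the log2 change ± SE of each gene from the main fit in 4 comparisons (filled where the adjusted p was under 0.05, open otherwise), and coloured symbols the log2 change under 3 other scalings of the libraries. PHF19 stays between -1.07 and -0.87 for TET2 KO over WT under all 4 scalings, while symbols of most other genes in the shMBD6 comparison in WT reach or approach 0.

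Ratios within a library do not depend on scaling. The log2 ratio of PHF19 to EZH2 was -1.46 ± 0.105 in WT shControl, -1.82 ± 0.105 in WT shMBD6 and -2.23 ± 0.0561 in KO shControl. That of AEBP2 to EZH2 was -3.01 ± 0.106, -2.57 ± 0.0632 and -2.16 ± 0.0429 in the same order, and that of MTF2 to EZH2 was -2.30 ± 0.0733, -2.08 ± 0.0263 and -1.94 ± 0.0738. Neither WT shMBD6 nor KO shControl overlapped with WT shControl for any of these 3 genes. For KO shControl this was not particular to them. The ratios of EZH1, EED, SUZ12, JARID2 and RBBP4 to EZH2 did not overlap with WT shControl either, and only that of PHF1 did. EZH2, the shared denominator, was itself called lower in KO. In WT, the ratios of EZH1, EED, JARID2, PHF1 and RBBP4 to EZH2 overlapped between shMBD6 and shControl. WT shMBD6 and KO shControl share the WT shControl libraries as their reference, so that a likeness between them was not tested.

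In TET2 KO cells, the libraries labelled shMBD6, in which MBD6 was not lower than in KO shControl, were compared with KO shControl, and the accessory genes went in opposite directions. At an edgeR adjusted p under 0.05, 3 of the 10 were higher and 3 lower, against 15.7% and 20.6% of all genes tested and 36.4% in either direction. PHF19 was at 172, 161 and 161 CPM in the libraries labelled shMBD6 and at 123, 124 and 114 CPM in KO shControl (1.37 times, log2 change 0.46 ± 0.0428 SE, edgeR adjusted p = 1.4e-10). EZH1, the second catalytic subunit (chr17:42700275-42745049, minus strand), was at 103, 100.2 and 95.8 CPM against 74.7, 76.2 and 74.0 CPM (1.33 times, log2 change 0.41 ± 0.0415 SE, edgeR adjusted p = 7.7e-10). RBBP4 was at 212, 218 and 219.8 CPM against 190.3, 190.7 and 185 CPM (log2 change 0.20 ± 0.0337). For all 3 genes each library labelled shMBD6 lay above each KO shControl library.

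AEBP2 was at 84.3, 89.7 and 87.9 CPM in the libraries labelled shMBD6, below the 123 to 131 CPM of KO shControl (0.693 times, log2 change -0.53 ± 0.0481 SE, edgeR adjusted p = 7.0e-11). MTF2 (-0.34 ± 0.0434) and JARID2 (-0.16 ± 0.0234) were lower as well. MTF2 and PHF19 thus went in opposite directions, and the PHF19 share of the Polycomb-like genes per kb of span was 54.6 ± 0.970% against 43.7 ± 1.67% in KO shControl, without overlap. EZH2 (0.03 ± 0.0243), SUZ12 (-0.02 ± 0.0346), EED (-0.03 ± 0.0673) and PHF1 (0.06 ± 0.128) were not called, but without KO replicate 1 of the libraries labelled shMBD6 EED was called lower (-0.15). The 6 called genes kept their direction under all 4 scalings, and 5 of them also their call, the exception being JARID2 at -0.04 with total gene counts. The median over all genes tested was -0.07. Of the genes whose promoter windows are printed above, EZH1 and PHF19 rose, AEBP2 fell and SUZ12 was not called.

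TET2 KO was also compared with WT under shMBD6, again with the KO libraries going against their label. At an edgeR adjusted p under 0.05, 7 of the 10 were higher and none was lower, against 30.1% of all genes tested called higher, 28.5% lower and 58.6% in either direction. Of 5350 well-expressed protein-coding genes, 64.6% were called higher and 16.5% lower. Their median log2 change was 0.22, beside 0.19 for the 10 genes. Among the 10, EZH1 (1.48 times, log2 change 0.56 ± 0.0417) and RBBP4 (1.36 times, 0.45 ± 0.0338) were the largest and kept direction and call under all 4 scalings. SUZ12 (0.23 ± 0.0347), EED (0.20 ± 0.0676), JARID2 (0.20 ± 0.0235), PHF19 (0.19 ± 0.0426) and EZH2 (0.16 ± 0.0243) were higher, but with TMM on genes well above background, which put the median of all genes at -0.28, these 5 turned to -0.03, -0.05, -0.05, -0.07 and -0.09. AEBP2 (0.02 ± 0.0483), MTF2 (-0.06 ± 0.0435) and PHF1 (-0.09 ± 0.128) were not called, and MTF2 was called lower under each of the 3 other scalings (-0.31 to -0.18). EED lost its call without replicate 1 of either group (0.16 without WT, 0.087 without KO). AEBP2 was at 83.3 to 90.8 CPM in WT shMBD6 and 84.3 to 89.7 CPM in the KO libraries labelled shMBD6, and its ratio to EZH2 was lower in the latter by 0.15 on the log2 scale without overlap. The difference between the shMBD6 changes in KO and in WT was called for 7 of the 10 genes, 5 higher and 2 lower in KO, against 49.4% of all genes tested in either direction, 23.9% higher and 25.5% lower. Of the well-expressed protein-coding genes, 51.2% were called higher and 27.7% lower for that difference.

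In mESC siNsun2 was compared with siControl, with Nsun2 itself at 0.792 times the siControl level. The core subunits were lower while JARID2 and AEBP2 orthologues were not called. Mtf2, the main Polycomb-like gene of these cells, was at 612, 634 and 644 CPM in siControl and at 478, 463 and 475 CPM in siNsun2, without overlap (0.749 times, log2 change -0.42 ± 0.0214 SE, edgeR adjusted p = 1.3e-30). Suz12, the scaffold of the core, was at 443, 455 and 466 CPM and at 358, 348 and 351 CPM (0.775 times, log2 change -0.37 ± 0.0225 SE, edgeR adjusted p = 7.3e-26). Rbbp4 (-0.25 ± 0.0312), Ezh1 (-0.25 ± 0.0445) and Eed (-0.23 ± 0.0287) were lower too. Ezh2 was at 404, 406 and 412 CPM and at 374, 371 and 383 CPM (log2 change -0.12 ± 0.0223).

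That made 6 of 10 called lower and 0 higher by edgeR, against 24.3% of all genes tested called lower, 25.8% higher and 50.2% in either direction. Among 5359 protein-coding genes whose mean log2 CPM was 5 or higher, 79.3% were called lower with a median log2 change of -0.21, beside -0.17 for the 10 genes and 0.14 for all genes tested. Jarid2 was at 870.3, 876 and 895 CPM and at 864, 849 and 856 CPM (-0.04 ± 0.0193, edgeR adjusted p = 0.072), and it was called lower without siControl replicate 1 (-0.056). Aebp2 (0.03 ± 0.0305), Phf1 (-0.10 ± 0.105) and Phf19 (0.35 ± 0.204) were not called either, and Phf19 rested on 113 to 202 reads per library. With total gene counts or with TMM on genes well above background, which put the median of all genes at 0.32 and 0.33, Ezh2 turned to a called 0.06 and 0.08 and Jarid2 to a called 0.14 and 0.15, Ezh1 and Eed were no longer called, and Mtf2 (-0.24 and -0.22) and Suz12 (-0.19 and -0.17) remained called lower.

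Ratios within libraries give the changes relative to one member and add no evidence on their order. Relative to Ezh2, Mtf2 moved by -0.30, Suz12 by -0.25, Rbbp4 by -0.14 and Eed by -0.11 on the log2 scale in siNsun2, while Aebp2 moved by 0.14 and Jarid2 by 0.08, in each case without overlap between the groups. Phf19 moved by 0.44, also without overlap, on few reads. Ezh1 (-0.13) and Phf1 (0.03) overlapped. The share of reads that matched no counted feature was 19.9 ± 0.345% in siControl and 29.4 ± 0.466% in siNsun2. Whether it includes intron reads is not given. The olfactory receptor level went from 0.0277 to 0.0413 CPM per kb. Of 12 S phase genes tested 9 were called lower, beside 24.3% of all genes tested and 79.3% of well-expressed protein-coding genes. The sum of the S phase genes went from 869.6 to 888.6 CPM in siControl to 735 to 756 CPM in siNsun2. The part of these differences in the results was not tested.

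**Figure D4:**
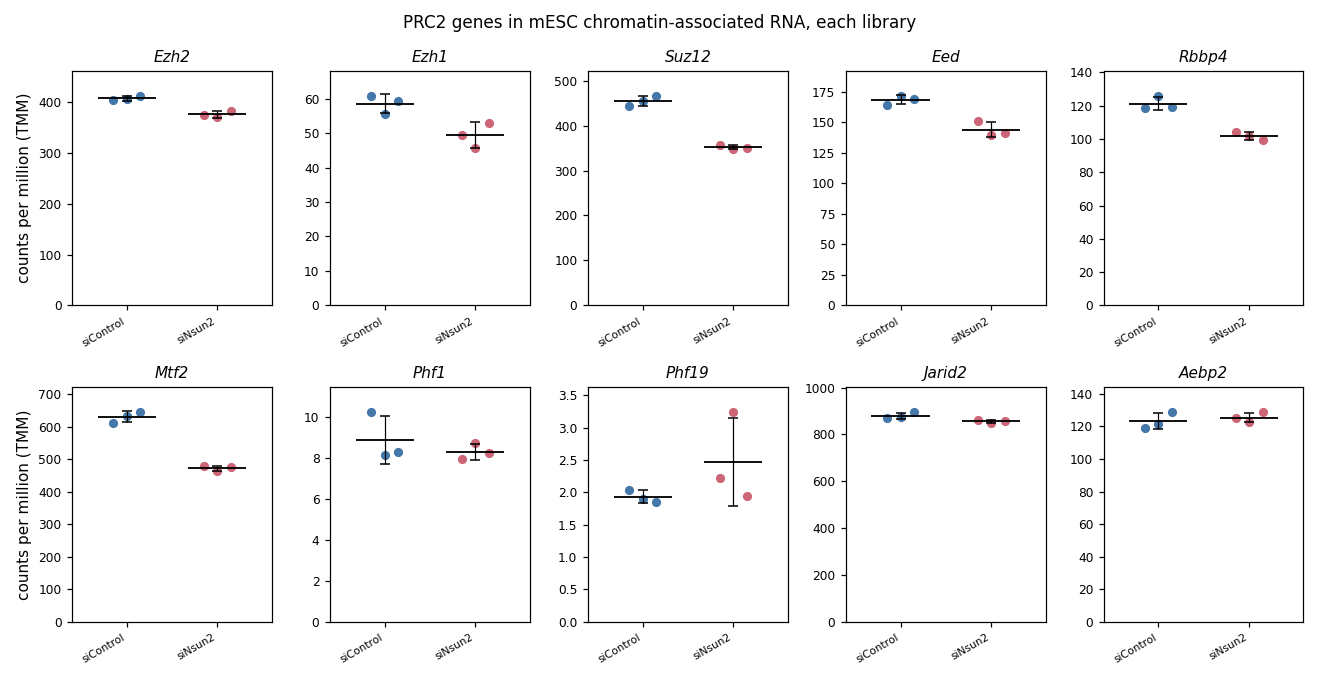
Points give CPM (linear axis from 0, TMM-scaled) of each PRC2 gene in the 3 siControl and 3 siNsun2 mESC libraries, with the mean as a line and the SD (n = 3) as error bar. Mtf2 lies between 612 and 644 in siControl and between 463 and 478 in siNsun2, and Jarid2 between 849 and 895 in all 6 libraries.

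Further subunits of PRC2 were counted beside the 10. In mESC, 4 of 4 were called lower in siNsun2, namely Epop (-0.47), Lcorl (-0.28), Lcor (-0.19) and Rbbp7 (-0.16). Beside them, 24.3% of all genes tested and 79.3% of well-expressed protein-coding genes were called lower. In K562, 3 of 5 were tested. RBBP7, the close relative of RBBP4, was at -0.21 in KO over WT under shControl, -0.29 in shMBD6 over shControl in WT and 0.28 in the KO libraries labelled shMBD6 over KO shControl, and was called in each. LCORL was at 0.53, 0.24 and -0.78 in the same comparisons, also called in each, with means of 299 CPM in WT shControl and 432 CPM in KO shControl. LCOR was at -0.0051, -0.21 and -0.14, not called in the first and lower in the others. Of all genes tested, 45.8%, 42.4% and 36.4% were called in either direction in these comparisons.

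Enzymes that act on the same or on opposing marks were read from 2 more lists. Of 4 H3K27 demethylases and acetyltransferases, 2 were called lower in KO over WT under shControl. In shMBD6 over shControl in WT and in siNsun2 mESC, 3 of the 4 were lower. The acetyltransferases EP300 and CREBBP were lower in KO over WT (-0.18 and -0.20), shMBD6 in WT (-0.26 and -0.27) and siNsun2 (-0.15 and -0.13). The demethylase KDM6A was lower in the latter comparisons (-0.084 and -0.082). With shMBD6 in WT, 24.7% of all genes tested and 62.1% of well-expressed protein-coding genes were called lower. In the KO libraries labelled shMBD6 over KO shControl, CREBBP was called higher (0.09) and KDM6A lower (-0.21). Of 9 methyltransferases for H3K4 and H3K36, 5 were higher and 2 lower in KO over WT under shControl, with NSD3 (0.40), SETD2 (0.33) and KMT2D (0.27) up and KMT2A (-0.31) down. Among all genes tested 23.5% were called higher and 22.3% lower, and among well-expressed protein-coding genes 41.5% and 34.3%. In siNsun2 mESC 7 of the 9 methyltransferases were lower and 0 higher by edgeR. There, 24.3% of all genes tested and 79.3% of well-expressed protein-coding genes were called lower.

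Among 16 developmental regulators that are textbook targets of PRC2, 14 were tested in mESC, and 10 were called higher and 1 lower in siNsun2, against 25.8% and 24.3% of all genes tested. Gata6 was at 1.29 ± 0.315 CPM in siControl and 2.11 ± 0.0486 CPM in siNsun2, and Pax6 at 1.33 ± 0.143 and 2.43 ± 0.186 CPM, while Gata4 fell from 12.9 ± 0.505 to 6.97 ± 0.401 CPM. Per kb of span, Gata6 and Pax6 were at 0.0384 and 0.0466 CPM per kb in siControl and at 0.0627 and 0.0852 in siNsun2, while the olfactory receptor level went from 0.0277 to 0.0413. The part of that rise in these calls was not tested. In K562, 8 of the 16 were tested. PAX3, PAX6 and PAX7 were lower in KO over WT under shControl and 5 were not called, and GATA4 and TBX5 were higher and WT1 lower in shMBD6 over shControl in WT. Of all genes tested, 22.3% were called lower in the former comparison, and 17.7% higher and 24.7% lower in the latter.

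S phase genes and EZH2 were read side by side in K562, since EZH2 is known to be transcribed in dividing cells. The 13 S phase genes, among them MCM2, PCNA and CCNE1, summed to 804 to 835 CPM in WT shControl, 553 to 570.4 CPM in WT shMBD6, 640.3 to 671 CPM in KO shControl and 939 to 969 CPM in the KO libraries labelled shMBD6. Of the 13, 10 were called lower in KO over WT under shControl, 11 lower in shMBD6 over shControl in WT and 13 higher in the KO libraries labelled shMBD6 over KO shControl. In the same order, 22.3%, 24.7% and 15.7% of all genes tested were called in these directions. Among well-expressed protein-coding genes the shares were 34.3%, 62.1% and 33.1%. Of the members, PHF19 was called in the same direction as the list in each of these 3 comparisons, EZH2 in those of KO over WT and of shMBD6 in WT, and EZH1 and RBBP4 in both shMBD6 comparisons. AEBP2 was called in the opposite direction in all 3, MTF2 and JARID2 in those of KO over WT and of the KO libraries labelled shMBD6, and SUZ12, EED and JARID2 were called lower like the list with shMBD6 in WT. The part of the S phase genes in these changes was not tested.

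The pattern of EZH2 was set beside those of 5349 other protein-coding genes with a mean log2 CPM of 5 or higher, not matched in depth. The 5 whose log2 level over the 4 K562 group means was nearest after centring were ATAD5, ZNF431, FBXL19, DCUN1D2 and ZNF263. Their root mean square differences from EZH2 were 0.0071 to 0.012. The centred EZH2 values were 0.12 in WT shControl, -0.14 in WT shMBD6, 0.00 in KO shControl and 0.02 in the KO libraries labelled shMBD6. Likeness over 4 group means says nothing of shared function or control.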

How the data were processed

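caRNA was sequenced by the authors after fractionation, ribosomal RNA depletion and stranded library preparation. Per the labels and the study's methods, reads were trimmed with Trimmomatic 0.39, aligned with HISAT2 2.2.1 to mm10 or hg38 and counted with HTSeq 0.12.4. The authors deposited, for each library, a table of raw counts by gene, with 0 rows for spike-in RNA, so that every value is relative to the other genes. Reads that matched no counted feature (19.6% to 29.9% of records in the mESC siRNA libraries, 13.1% to 16.0% in K562), ambiguous reads (2.13% to 5.24%) and reads with more than 1 alignment (4.77% to 11.2%) were left out of library sizes and tests, so that copies of a gene, such as the pseudogenes of SUZ12, RBBP4 and EED, make its level uncertain.

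Gene symbols, spans and exons came from GENCODE annotations of GRCm38 and GRCh38 whose releases differ from those of the counts (99.93% and 99.12% of identifiers matched). At most 1.55% of a member's span was overlapped by another gene on its strand. The test was edgeR 4.0.16 (quasi-likelihood, TMM scaling, robust, filterByExpr with a minimum of 10 counts, limma 3.58.1, R 4.3.3) with Benjamini-Hochberg adjustment over 27603 mouse or 26023 human genes and a call at an adjusted p under 0.05, checked on simulated data. The mESC model held 6 libraries and the K562 model 12 in 4 groups with 1 shared spread. SE came from the quasi-likelihood F. CPM are TMM-scaled. Ratios were tested with scipy 1.17.1. DESeq2 1.42.0, other scalings and filters, and omission of single libraries were alternatives. Replicate pairs differed by more than sampling noise (chi-square per degree of freedom 3.87 to 14.1), and each library was counted once.

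The members, the lists and the tests were chosen with earlier results of these data known. The genes named were the 10 members, the targeted genes, examples from the lists and the 5 genes most like EZH2. Examples from the lists and the E2F words were chosen after values were seen. RefSeq promoter sequences were used for human genes only. A further mESC library from another experiment entered no comparison.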

Additional observations from a re-analysis of the deposited data

Results flagged for a closer look

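The effect of the shMBD6 label differed between TET2 KO and TET2 WT cells for 7 of the 10 genes (interaction contrast of the edgeR model, adjusted p under 0.05), beside 49.4% of all genes tested in either direction, 23.9% higher and 25.5% lower. Positive values mean a change that was higher in KO than in WT, and the KO libraries labelled shMBD6 went against their label in MBD6 itself. PHF19 was at 1.08 ± 0.0603 SE on the log2 scale (edgeR adjusted p = 2.2e-16), made up of -0.62 in WT and 0.46 in KO, and each library moved below its control group in WT and above it in KO. EZH1 was at 0.64 ± 0.0588 (-0.23 in WT, 0.41 in KO) and RBBP4 at 0.45 ± 0.0477 (-0.25 and 0.20), with the same pattern of opposite directions. EZH2 was at 0.29 ± 0.0344 and SUZ12 at 0.19 ± 0.049, both from a lower value in WT and no call in KO.

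AEBP2 was at -0.70 ± 0.0681 (0.18 in WT, -0.53 in KO) and MTF2 at -0.30 ± 0.0613 (-0.04 and -0.34). With TMM on genes well above background, PHF19 (0.80), EZH1 (0.36), RBBP4 (0.18), MTF2 (-0.58) and AEBP2 (-0.98) remained called, EZH2 was at 0.01 and SUZ12 turned to -0.09, neither called. The median interaction value over all genes tested was -0.19. Over 5350 well-expressed protein-coding genes it was 0.17, with 51.2% of them called higher and 27.7% lower, beside a median of 0.17 for the 10 members. All 13 S phase genes (median 1.19) and 6 of the 6 K562 markers tested (median 1.41) were higher in the same contrast, and their part in these values was not tested.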

How the results depend on the processing

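The counts of members called stayed within 1.5 times the main count under every alternative but those given here. With an absolute log2 change of at least 0.26 required, 2 members were called in mESC, 2 in KO over WT under shControl, 2 in shMBD6 over shControl in WT and 2 in KO over WT under shMBD6, since most calls are smaller than that. With TMM on genes well above background, 3 were called for shMBD6 in WT. Omitting single libraries gave counts of 6 to 7 in mESC, 5 in KO over WT under shControl, 7 to 8 for shMBD6 in WT, 6 to 7 for the KO libraries labelled shMBD6, 6 to 7 in KO over WT under shMBD6 and 7 to 8 for the interaction. EZH1 to EZH2 ratio differences ran over the same omissions from -0.171 to -0.0843, 0.0317 to 0.0697, 0.0137 to 0.0552, 0.355 to 0.418 and 0.372 to 0.435 in the order of the first 5 of these comparisons. EZH2 ranked 2 of 10 in WT shControl K562 per kb of exon. Over the members and alternatives planned, 787 values kept sign and side of the threshold, 59 lost the call, 31 gained one and 63 changed sign.

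Sign changes under total gene counts were Ezh2 (0.064), Jarid2 (0.14) and Phf1 (0.083) in mESC, EED (-0.12), SUZ12 (-0.14) and JARID2 (-0.050) in KO over WT under shControl, MTF2 (0.058) and PHF1 (0.035) for shMBD6 in WT, EED (0.096) and SUZ12 (0.11) for the KO libraries labelled shMBD6, and AEBP2 (-0.13) in KO over WT under shMBD6. Under TMM on genes well above background they were Ezh2 (0.078), Jarid2 (0.15) and Phf1 (0.096) in mESC, RBBP4 (0.021) in KO over WT under shControl, EZH1 (0.0038), EED (0.056), SUZ12 (0.023), MTF2 (0.19) and PHF1 (0.17) for shMBD6 in WT, EZH2 (-0.020) for the KO libraries labelled shMBD6, EZH2 (-0.088), EED (-0.048), SUZ12 (-0.027), JARID2 (-0.050), PHF19 (-0.066) and AEBP2 (-0.24) in KO over WT under shMBD6, and EED (-0.13), SUZ12 (-0.089), JARID2 (-0.20) and PHF1 (-0.15) for the interaction. The cause was not tested.

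DESeq2 size factors, and DESeq2 itself, changed the sign of Aebp2 (-0.034) in mESC, MTF2 (0.071) and PHF1 (0.048) for shMBD6 in WT, AEBP2 (-0.10) in KO over WT under shMBD6, and JARID2 (-0.024) for the interaction. No filter changed MTF2 (0.066) and PHF1 (0.043) for shMBD6 in WT, EED (0.018) and SUZ12 (0.029) for the KO libraries labelled shMBD6, and AEBP2 (-0.042) in KO over WT under shMBD6. A minimum of 50 counts changed Jarid2 (0.017) in mESC, MTF2 (0.020) for shMBD6 in WT, and AEBP2 (-0.061) in KO over WT under shMBD6. A fit of only the groups compared changed EED (0.019) and SUZ12 (0.028) for the KO libraries labelled shMBD6, AEBP2 (-0.054) in KO over WT under shMBD6. Over single omissions, values ran for Phf1 from -0.17 to 0.0086 in mESC, Aebp2 from -0.0053 to 0.050 in mESC, RBBP4 from -0.038 to 0.030 in KO over WT under shControl, PHF1 from -0.12 to 0.033 for shMBD6 in WT, PHF1 from -0.080 to 0.16 for the KO libraries labelled shMBD6, EED from -0.15 to 0.027 for the KO libraries labelled shMBD6, AEBP2 from -0.0090 to 0.055 in KO over WT under shMBD6, PHF1 from -0.22 to 0.012 in KO over WT under shMBD6 and PHF1 from -0.011 to 0.22 for the interaction. None of the values in this paragraph belonged to a gene called in that comparison as reported.

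Replicate numbers were not taken to pair the libraries, since not every same-numbered pair correlated above 0.1. In mESC 0 of 3 such pairs did (-0.039 to 0.0219). In K562 12 of 18 did (-0.0991 to 0.432, median 0.171), against 9 of 36 pairs of different numbers (median -0.083), a hint of pairing from the data and not from the labels. With the replicate number as a block, 6 members were called in mESC and, in the order above, 5, 7, 6, 7 and 8 in the K562 comparisons. Phf19 in mESC rested on 113 to 202 reads per library. PHF1 had the largest SE of the 10 genes in K562, and what sets it was not tested.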

Other observations

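The mESC library of the label Pspc1 WT (replicate 3) has no counterpart among the groups compared. Scaled to its own total gene counts, it held Jarid2 at 1426 CPM, Mtf2 at 999.5 CPM, Suz12 at 489 CPM, Ezh2 at 264 CPM, Eed at 232 CPM, Aebp2 at 182 CPM, Rbbp4 at 156 CPM, Ezh1 at 43.5 CPM, Phf1 at 8.08 CPM and Phf19 at 1.13 CPM (104 reads). Mtf2 was the highest and Phf19 the lowest of the Polycomb-like genes in this library as well.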
